A study of Mus musculus with 8 samples.

Results

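The genes examined here encode 10 proteins of the piRNA pathway, the small RNA system that silences transposons in germ cells: *Piwil1*, *Piwil2*, *Piwil4*, *Mael*, *Tdrd1*, *Tdrd5*, *Tdrd6*, *Tdrd9*, *Mov10l1* and *Ddx4*. They were taken from a list of names and are 10 of the 21938 protein-coding genes compared. Chromatin accessibility had been measured by ATAC-seq, in which a transposase inserts sequencing adapters into open DNA, in mouse pachytene spermatocytes, 4 libraries from *Arid1a* WT and 4 from *Arid1a* cKO. ARID1A is a subunit of BAF, a complex of the SWI/SNF family that moves nucleosomes. The cKO males were *Arid1a* fl/fl with a *Stra8-Cre* Tg/0 transgene, whose Cre is expressed in spermatogonia, and the WT males were *Arid1a* fl/fl or fl/+, with no Cre named. The cells came from the pooled testes of adult males on a CD1 background and were enriched by sedimentation, so the fractions are not pure. The study found that *Stra8-Cre* did not excise the gene in every cell, and the cKO libraries therefore mix cells with and without ARID1A.

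PIWI proteins bind piRNAs and find transposon transcripts through them. PIWIL2 and PIWIL4 act in fetal prospermatogonia, where the nuclear protein PIWIL4 directs DNA methylation of transposons. PIWIL1 appears in pachytene spermatocytes, together with a large new class of piRNAs whose precursors and many of whose protein factors are switched on by the transcription factor A-MYB. Tudor domain proteins dock onto methylated arginines of PIWI proteins and assemble them in perinuclear granules, and RNA helicases pass piRNA precursors on to the processing machinery. The question put to the peak lists was whether the genes for these factors lie in open chromatin in pachytene spermatocytes, and whether the genes used in fetal and in pachytene cells differ between the genotypes.

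The promoters of 8 of the 10 genes were found in a RefSeq table of GRCm38.p6 promoters, each with 250 bases before and 50 after a transcription start, and those of *Piwil2* and *Tdrd6* were not in it. The E-box CACGTG, the core site of basic helix-loop-helix factors, was present in 6 of the 8 windows and in 8.03% of the 20118 promoters of protein-coding genes. One form of the MYB site, AACNGT, was present in 3 of 8 windows (*Tdrd5*, *Tdrd9* and *Mov10l1*) and in 23.2% of all promoters. It was searched on both strands like the other motifs. Only this form was counted, and a window without it can hold other forms. The opposite strand of the *Piwil1* window, for example, reads TAACGG. Below are the windows with more than 1 match to these motifs, which all lay within a peak in both genotypes, and the window of *Piwil4*, the gene without a peak. Capitals mark CACGTG and AACNGT, and each line runs 5′ to 3′ along the gene. The windows are chr5:128735996-128736295 on the plus strand for *Piwil1*, chr12:111971309-111971608 on the plus strand for *Tdrd9*, chr15:88982744-88983043 on the plus strand for *Mov10l1* and chr9:14740623-14740922 on the minus strand for *Piwil4*.
Piwil1: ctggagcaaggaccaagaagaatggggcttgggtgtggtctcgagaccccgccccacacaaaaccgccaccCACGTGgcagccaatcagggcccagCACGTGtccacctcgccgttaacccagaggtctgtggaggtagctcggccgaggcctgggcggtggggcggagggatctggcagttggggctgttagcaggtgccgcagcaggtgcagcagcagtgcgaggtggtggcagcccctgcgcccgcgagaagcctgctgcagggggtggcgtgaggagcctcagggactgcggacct
Tdrd9: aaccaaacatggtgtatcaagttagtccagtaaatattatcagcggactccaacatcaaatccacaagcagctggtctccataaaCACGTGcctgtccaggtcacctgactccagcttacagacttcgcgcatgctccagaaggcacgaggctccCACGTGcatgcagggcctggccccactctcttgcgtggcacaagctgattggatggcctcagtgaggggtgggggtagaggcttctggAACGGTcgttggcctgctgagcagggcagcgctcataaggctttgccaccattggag
Mov10l1: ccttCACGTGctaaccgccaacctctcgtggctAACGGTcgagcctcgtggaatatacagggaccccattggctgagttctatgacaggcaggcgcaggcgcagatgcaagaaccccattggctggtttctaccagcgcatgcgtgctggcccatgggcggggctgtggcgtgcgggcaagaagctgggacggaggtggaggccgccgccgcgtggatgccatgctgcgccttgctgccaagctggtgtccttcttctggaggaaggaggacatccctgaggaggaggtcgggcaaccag
Piwil4: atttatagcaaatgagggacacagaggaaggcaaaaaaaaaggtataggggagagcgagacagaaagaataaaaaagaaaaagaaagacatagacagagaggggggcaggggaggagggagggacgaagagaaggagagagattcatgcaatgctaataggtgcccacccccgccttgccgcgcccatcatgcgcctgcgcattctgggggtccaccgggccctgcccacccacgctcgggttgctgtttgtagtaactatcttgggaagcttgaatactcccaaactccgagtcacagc

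The *Piwil1* window held CACGTG from -179 to -174 and from -154 to -149 relative to the RefSeq start. In *Tdrd9* the E-boxes lay at -165 to -160 and -95 to -90, and AACGGT at -7 to -2. *Mov10l1* had CACGTG at -246 to -241 and AACGGT at -217 to -212, and it was also the member with the NRF1 motif CGCATGCG, at -114 to -107, which 2.6% of all promoters held. *Mael*, *Tdrd1* and *Ddx4* had 1 E-box each. The E2F motif GCGGGAA was present in *Tdrd5* and *Ddx4* and in 6.13% of promoters, and the CRE TGACGTCA in none of the 8 and in 2.32%. *Piwil4* held none of the 5 motifs, and with a GC content of 52.7% it lay at the 36.4th percentile of promoters, whereas the windows with a peak ranged from 55.7% in *Tdrd9* to 76.0% in *Tdrd5*. A match describes the letters in these windows and says nothing of binding.

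Each genotype was given as 1 peak list, in which all peaks come from 1 reference library and each row is the part of a peak shared with a peak of another library of that genotype. Rows with the same name were collapsed into 1 peak, with 19309 peaks in WT and 30244 in cKO. No base was covered by more than 3 rows, so a peak with 3 rows over 1 base had been found in all 4 libraries. Fold enrichment is the pileup of fragments at the summit over the background of the reference library, with 1 added to each. The background recovered from these values was 4.33 fragments per base in WT and 5.11 in cKO, and the weakest peaks stood on 13 and 14 fragments, respectively. No value has a spread between replicates, and intervals given for ratios cover counting error of the reference libraries only. The labelled cell type was checked at the promoters of marker genes, and peaks stood at 8 of 8 meiotic markers in both lists. Other markers were not absent, at 1 of 6 spermatogonial genes in WT and 3 of 6 in cKO, 3 and 4 of 6 for round spermatids, 2 and 3 of 6 for Sertoli cells, 1 and 1 of 6 for Leydig cells, and 0 and 1 of 4 for peritubular and blood cells. More of these markers had a peak in the longer cKO list, and their part in the results was not tested.

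Open chromatin was found at 9 of the 10 genes in both genotypes, and *Piwil4* was the exception. In all, 18 WT and 33 cKO peaks lay in the gene bodies or the 1000 bp upstream. Over all protein-coding genes, 55.4% had such a peak in WT and 63.7% in cKO. The same 9 members had a promoter peak, within 1000 bp upstream and 100 bp downstream of an annotated start, and among all genes 49.7% had one in WT and 56.7% in cKO. Every one of the 18 promoter peaks of the members was supported by all 4 libraries of its genotype. Such support was usual, at 73.2% of all WT peaks and 79.4% of all cKO peaks. Of the 10839 genes with a promoter peak in both lists, 9801 had 3 rows over both summits. A WT peak was called common when it shared a base with a cKO peak and otherwise lost, and a cKO peak without a WT base was called gained. At the members 17 of 18 WT peaks were common and 1 was lost, where 4.75% of all WT peaks were lost. In cKO 17 were common and 16 gained, and of all cKO peaks 43.5% were gained. These counts moved with the length of the cKO list. It was shortened to that of the WT list by −log10 q, which takes out its weakest peaks. The members then had 17 cKO peaks against 18 in WT, with 3 gained and 5 lost. Why the lists differ in length was not tested.

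**Figure D1:**
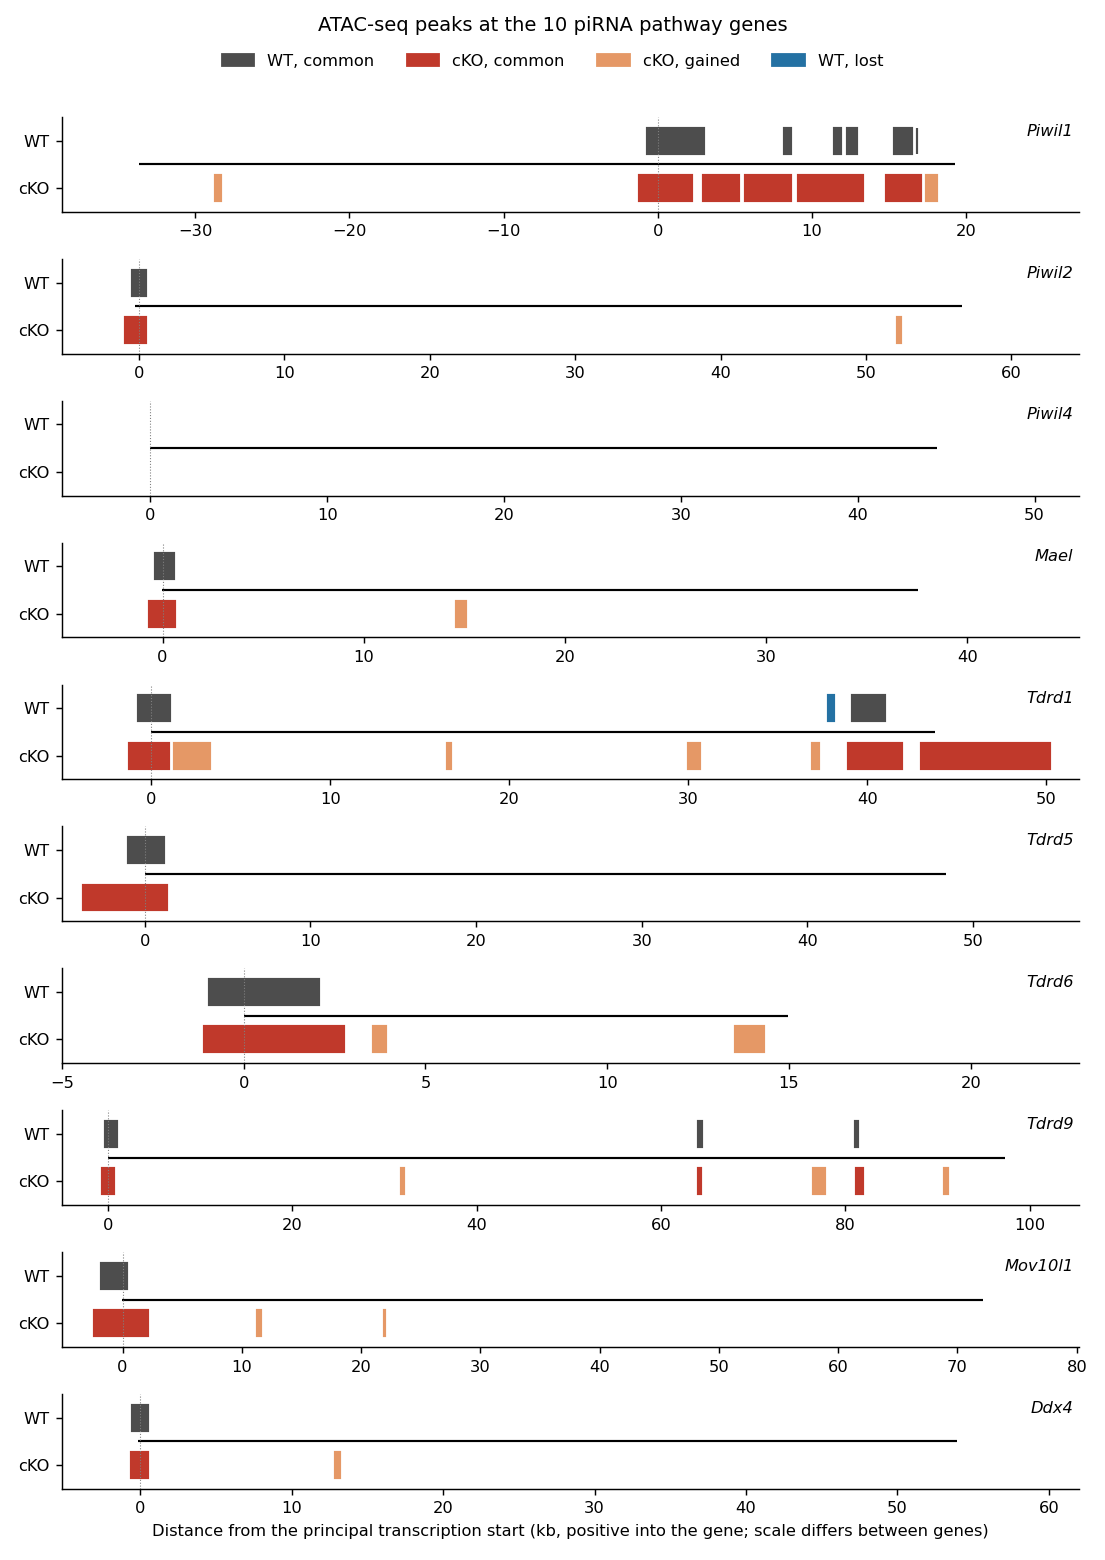
Peaks at the 10 genes, drawn as boxes by their distance in kb from the principal transcription start, with WT above and cKO below each gene line (black). *Piwil4* has no box, *Piwil1* and *Tdrd1* carry the most cKO boxes, and gained peaks (orange) lie in the bodies of 8 genes.

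Among the PIWI genes, *Piwil1*, which encodes the pachytene PIWI protein MIWI, had the most extended pattern. The WT promoter peak, chr5:128735503-128739203, was 3701 bp wide on 5 rows, with a fold enrichment of 10.9. The cKO promoter peak, chr5:128734941-128738388, was 3448 bp wide on 3 rows, with a fold enrichment of 18.2. *Piwil1* was thus the member whose collapsed promoter peak was narrower in cKO, while the next cKO peak, chr5:128739089-128741471, overlapped the same WT peak and continued it. Both promoter peaks held the start of 4930553I04Rik, an unclassified transcript on the opposite strand, 145 bp upstream of the *Piwil1* start.

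Downstream of its promoter, *Piwil1* had 5 WT peaks of 43 to 1161 bp with fold enrichments of 3.0 to 3.94. They were at chr5:128744350-128744816 (467 bp, 2 rows), chr5:128747615-128748049 (435 bp, 2 rows), chr5:128748437-128749089 (653 bp, 3 rows), chr5:128751501-128752661 (1161 bp, 3 rows) and chr5:128752973-128753015 (43 bp, 1 row). In cKO the same stretch was covered by far wider common peaks. These were the peak of 2383 bp named above (fold enrichment 4.58, 3 rows), chr5:128741829-128744821 (2993 bp, 3.76, 4 rows), chr5:128745288-128749484 (4197 bp, 4.25, 4 rows) and chr5:128750992-128753230 (2239 bp, 3.44, 4 rows). The last 2 of them each took in 2 separate WT peaks. A gained peak at chr5:128753596-128754266 (671 bp, 3.76, 2 rows) ended the series 18092 bp into the gene, and another at chr5:128707442-128707824 (383 bp, 3.93, 3 rows) lay in the intron behind an upstream start. Peaks covered 12.2% of the *Piwil1* body in WT and 30.8% in cKO.

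*Piwil2*, which encodes MILI, the PIWI protein of both fetal and adult germ cells, had the strongest promoter peak of the members in either list. The WT peak, chr14:70428621-70429562, was 942 bp wide with a fold enrichment of 21.0, and the cKO peak, chr14:70428622-70430030, was 1409 bp wide with 22.9, both on 3 rows. The downstream edges differed by 1 bp, so the added width lay upstream. A gained peak in a coding exon, chr14:70376694-70376991, was 298 bp wide on 1 row, with a fold enrichment of 2.95.

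*Piwil4*, which encodes the fetal nuclear protein MIWI2, lies on the minus strand at chr9:14696230-14740733 and had no peak in its 44504 bp or the 1000 bp upstream in either list. A site there would have entered a list only with a significant pileup in the reference library, for which the lowest fold enrichment was 2.63 in WT and 2.45 in cKO, and a peak in at least 1 other library. Accessibility under that limit was not detectable in these lists.

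The Tudor domain genes followed. *Tdrd1*, whose product binds MILI in the granules between mitochondria, had the weakest promoter peak of the 9. It was chr19:56825446-56827276 in WT, with a width of 1831 bp and a fold enrichment of 6.94, and chr19:56824979-56827209 in cKO, with 2231 bp and 10.3, both on 3 rows. The one lost peak of the members was intronic here, at chr19:56864003-56864343 (341 bp, 3.19, 1 row). Another WT peak near the 3′ end, chr19:56865364-56867200 (1837 bp, 3.94, 5 rows), was common with chr19:56865122-56868119 in cKO (2998 bp, 4.09, 3 rows).

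*Tdrd1* also had the most gained peaks, 4. The first, chr19:56827500-56829486 (1987 bp, 4.25, 4 rows), began close behind the promoter peak and was the widest gained peak of the members. The others were chr19:56842729-56842950 (222 bp, 2.95, 2 rows), chr19:56856183-56856862 (680 bp, 2.78, 1 row) and chr19:56863121-56863505 (385 bp, 3.11, 2 rows). A further cKO peak, chr19:56869178-56876421 (7244 bp, 18.3, 4 rows), touched the last part of *Tdrd1* but ran 6409 bp past its end. It held the start of *Vwa2*, a neighbour on the same strand singled out after the values were seen, and it is not a peak of *Tdrd1* alone.

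*Tdrd5*, needed for pachytene piRNA production, had 1 peak in each list and no gained peak. It was chr1:156302511-156304694 in WT (2184 bp, fold enrichment 12.4, 4 rows) and chr1:156302337-156307417 in cKO (5081 bp, 18.2, 3 rows). The cKO peak overlapped 3 WT peaks, so that part of its span already lay in WT peaks. Both peaks held the start of the antisense transcript 4930518J20Rik, 175 bp into the gene. Reads from a promoter shared in this way cannot be assigned to either gene.

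*Tdrd6* encodes a large multi-Tudor protein of the chromatoid body and, like *Piwil1*, comes on in pachytene cells. Its promoter peak was centred in a coding exon, at chr17:43628233-43631249 in WT (3017 bp, 8.07) and chr17:43627546-43631388 in cKO (3843 bp, 15.4), both on 3 rows. The gained peaks were chr17:43626376-43626731 in coding sequence (356 bp, 3.11) and chr17:43615985-43616784 in an intron near the 3′ end (800 bp, 3.93), each found in all 4 libraries. At 14965 bp *Tdrd6* is the shortest of the genes, and peaks covered 13.8% of it in WT and 26.1% in cKO.

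*Tdrd9* encodes a protein with both a Tudor and a helicase domain that works with MIWI2 in the fetal testis. Its promoter fold enrichment was 7.32 at chr12:111971215-111972511 (1297 bp) in WT and 16.7 in cKO, at chr12:111970873-111972213 (1341 bp), both on 3 rows. The ratio of 2.28 was the highest of the members and lay at the 98.2nd percentile of all genes with a promoter peak in both lists. An intronic common peak at chr12:112052606-112052900 in WT (295 bp, 3.56, 1 row) met one at chr12:112052690-112053494 in cKO (805 bp, 3.27, 3 rows). Gained peaks lay at chr12:112003354-112003620 (267 bp, 3.60, 1 row), chr12:112048066-112049342 (1277 bp, 3.60, 4 rows) and chr12:112062219-112062717, upstream of an internal start (499 bp, 3.44, 1 row).

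Another *Tdrd9* intron held a peak in both lists that stood on repeated sequence. It was chr12:112035589-112035952 in WT (364 bp, 4.13) and chr12:112035533-112035939 in cKO (407 bp, 5.40), on 3 rows each and in all 4 libraries of each genotype. Within it, bases equalled the base 39 positions on in at least 90% of positions over a stretch of 203 bp, about 5.21 copies, or 49.9% of the cKO peak. Short reads from such a stretch can be placed on more than 1 copy, and no filter on mapping quality was stated for these lists. The first 150 bases of the stretch, chr12:112035564-112035713 on the plus strand of GRCm38.p6 (RefSeq), are shown with the first unit in capitals.
Tdrd9 intron: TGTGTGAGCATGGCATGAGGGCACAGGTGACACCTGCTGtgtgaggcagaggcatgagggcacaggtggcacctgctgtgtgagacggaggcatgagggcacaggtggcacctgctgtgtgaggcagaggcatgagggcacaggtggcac

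*Mov10l1* encodes the helicase that feeds piRNA precursors into processing. Its promoter peak was chr15:88981152-88983400 in WT (2249 bp, fold enrichment 12.2, 3 rows) and chr15:88980633-88985096 in cKO (4464 bp, 17.0, 4 rows). The cKO peak reached 519 bp farther upstream and 1696 bp farther downstream. Gained intronic peaks lay at chr15:88994278-88994584 (307 bp, 3.11, 3 rows) and chr15:89004934-89005023 (90 bp, 2.78, 1 row). Peaks covered 0.68% of the body in WT and 3.58% in cKO, a ratio of 5.25 and the largest of the members.

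*Ddx4* encodes the germ cell helicase VASA, and *Mael* a chromatoid body protein needed for transposon silencing. The *Ddx4* promoter peak was chr13:112651818-112652838 in WT (1021 bp, fold enrichment 8.25) and chr13:112651807-112652884 in cKO (1078 bp, 14.4), both on 3 rows, a stronger peak of nearly the same extent. A gained intronic peak stood at chr13:112639097-112639416 (320 bp, 2.95, 1 row). The *Mael* promoter peak was chr1:166238181-166239131 in WT (951 bp, 10.7) and chr1:166238116-166239432 in cKO (1317 bp, 15.9), both on 3 rows. Its gained intronic peak, chr1:166223659-166224133 (475 bp, 3.27, 2 rows), was 92.0% repeat-masked sequence.

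Set side by side, fold enrichment was higher in cKO at 9 of 9 promoters, and at 97.9% of the 10839 genes with a promoter peak in both lists. Among the 6848 genes whose WT fold enrichment lay within the members' range, the share was 99.5%. The cKO over WT ratio had a 95% counting interval above 1 at 7 members, and how many of all genes had one was not counted. The interval held 1 at *Piwil2* (1.09, 0.845 to 1.41) and *Tdrd1* (1.49, 0.981 to 2.33). The median log2 ratio was 0.57 for the members and 0.65 for all genes, so the members as a group did not stand above the list. Within that shared shift, *Tdrd9* (2.28, 1.58 to 3.46) and *Tdrd6* (1.91, 1.33 to 2.85) stood highest and *Piwil2* lowest. The interval of *Tdrd9* lay just above the median ratio of all genes, 1.57, and that of *Piwil2* below it.

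**Figure D2:**
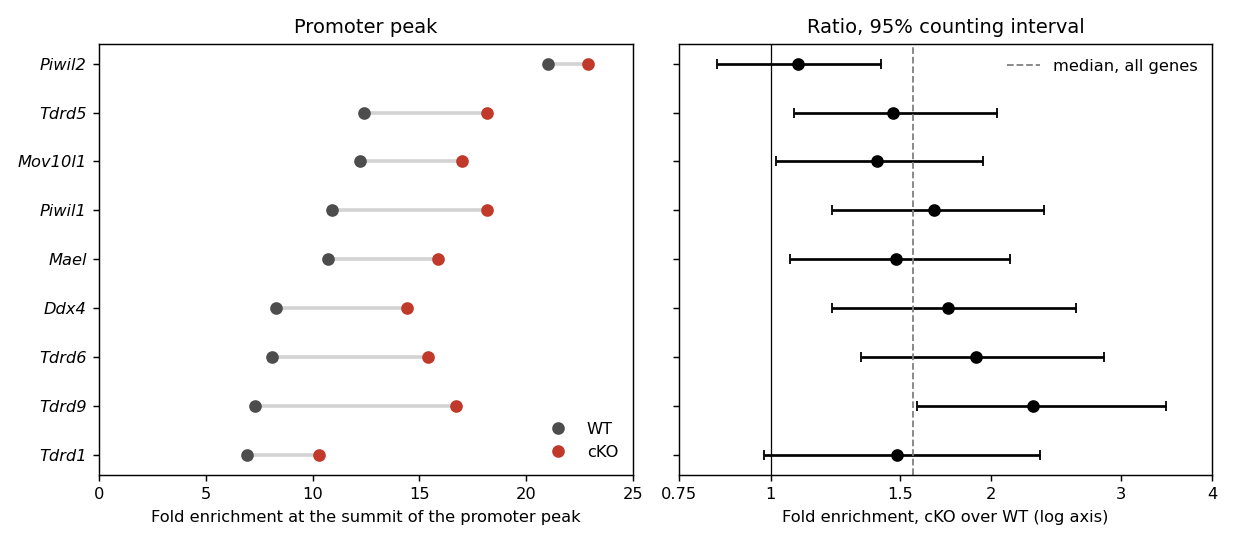
Left, fold enrichment at the promoter peak of 9 genes in WT (grey) and cKO (red); right, the cKO over WT ratio on a log axis with its 95% interval for counting error, beside the median of all genes (dashed). Every red point lies to the right of its grey point, from 1.09 times at *Piwil2* to 2.28 times at *Tdrd9*.

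Each promoter peak was also placed among those of all genes in its list. This percentile was higher in cKO at 5 of 9 members and at 71% of all genes, but the lists held 10898 promoter peaks in WT and 12443 in cKO, and their length enters the rank. The genes with a peak in both lists were therefore ranked among themselves, a choice made after the data were seen. On this scale the percentile was higher in cKO at 4 of 9 members and at 47.6% of the 10839 genes. *Tdrd9* had 39.2 in WT and 63.4 in cKO, *Tdrd6* 45.8 and 57.6, *Ddx4* 47.3 and 53.3, and *Piwil1* 67.1 and 69.0. *Tdrd1*, at 35.9 and 33.3, was higher in cKO by the first measure and lower by the second. *Mael* (65.96 and 59.8), *Tdrd5* (75.7 and 69.0), *Mov10l1* (74.7 and 64.6) and *Piwil2* (97.6 and 83.5) were lower in cKO by both measures. Of these, *Piwil2* alone started near the top of the list, and the part of this in its lower rank was not tested.

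Most promoter peaks were also wider in cKO. The collapsed promoter peak was wider in cKO at 8 of 9 members, and at 95.3% of all genes and 95.8% of genes in the members' fold range. The median log2 width ratio was 0.35 for the members and 0.53 for all genes. The cKO peak was 2.33 times as wide at *Tdrd5*, where it overlapped 3 WT peaks, and 1.98 times at *Mov10l1*. *Ddx4* (1.06 times) and *Tdrd9* (1.03 times) barely differed, and *Piwil1* was 0.932 times as wide. With the longest row of a peak in place of its span, 9 of 9 were wider in cKO, and 96.1% of all genes. *Piwil1* then had 2530 bp in WT and 3448 bp in cKO. Of the 8 genes with a wider collapsed peak, *Tdrd9* and *Ddx4* had the smallest gains in width, with ratios of fold enrichment above the median of all genes.

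**Figure D3:**
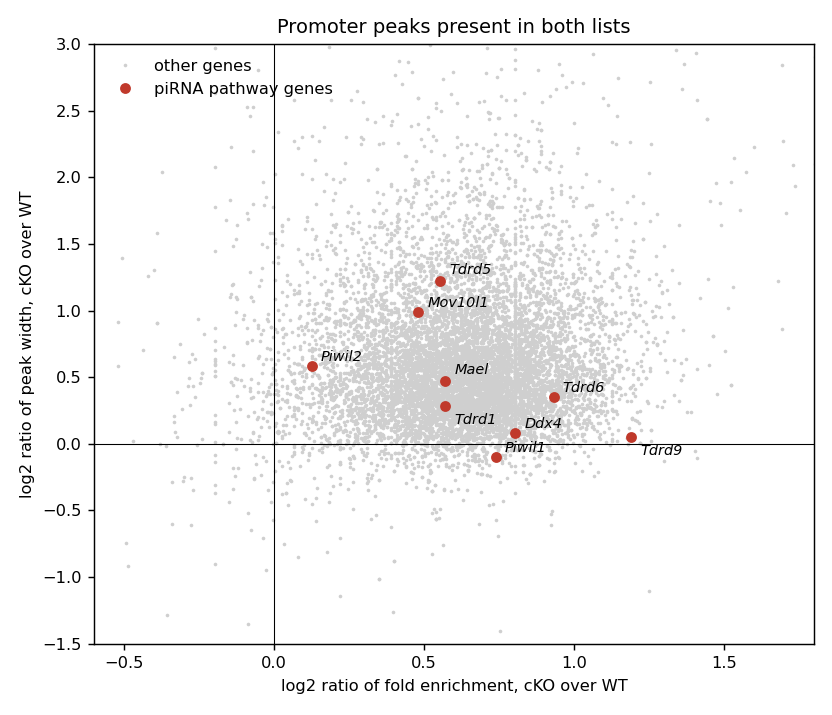
Each point is a gene with a promoter peak in both lists, placed by the log2 ratio of fold enrichment and of peak width, cKO over WT; 80 of 10839 genes lie outside the axes. The 9 members (red) spread through the cloud, with *Tdrd9* at the right edge, *Piwil2* at the left and *Piwil1* below 0 in width.

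The rows gave the only view of single libraries. A row over the summit is the unbroken stretch around it that another library shared with the reference peak, and it cannot be longer than that peak. At *Piwil1* the 3 WT rows were 1234, 1547 and 2530 bp long and the 3 cKO rows 3399, 3420 and 3448 bp. The WT peak of *Piwil1* also had rows of 1841 and 290 bp off the summit, which these lengths leave out. At *Tdrd5* they were 1265, 1286 and 1629 bp against 4705, 4836 and 5081 bp, with a further WT row of 504 bp off the summit. At *Tdrd6* they were 2550, 2733 and 2929 bp against 3696, 3843 and 3843 bp. The rows over the summit did not overlap between genotypes at these genes, nor at the other 6, so that the shortest cKO row exceeded the longest WT row at 9 of 9. The same held for 91.8% of the 9801 genes with 3 rows over both summits and for 92% of those in the members' fold range. The gap between the genotypes was 3076 bp at *Tdrd5*, but 57 bp at *Ddx4* and 24 bp at *Tdrd9*. All rows of a genotype share 1 reference library, and its part in this difference was not tested.

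**Figure D4:**
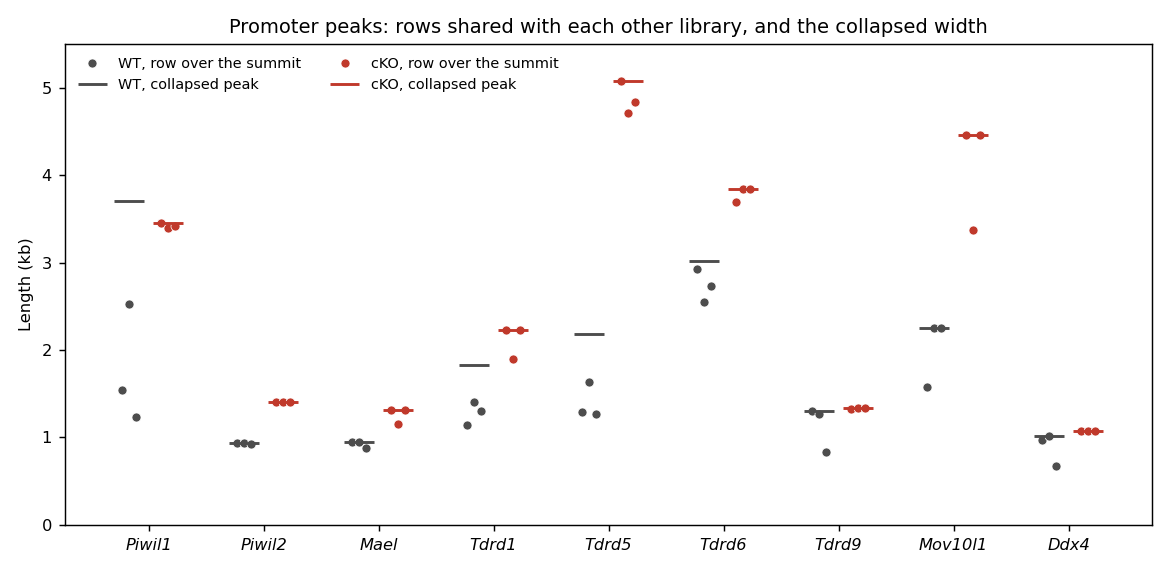
Length in kb of the 3 rows over the promoter summit (points) and of the collapsed peak (bars) in WT (grey) and cKO (red). At every gene all red points lie above all grey points, by 24 bp at *Tdrd9* and 3076 bp at *Tdrd5*.

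The added width was not even around the start. In cKO the promoter peak reached farther upstream at 9 of 9 members but farther downstream at 5 of 9. Of the 9148 genes with peaks over the principal start in both lists, 89.5% reached farther upstream and 89.1% farther downstream. The median gain was 467 bp upstream and 11 bp downstream for the members, compared with 212 and 201 bp over all genes. The downstream edge drew back at *Piwil1* (3029 to 2214 bp), *Tdrd9* (952 to 654 bp), *Tdrd1* (1067 to 1000 bp) and, by 1 bp, *Piwil2*. It advanced most at *Mov10l1* (406 to 2102 bp). At *Piwil1* and *Tdrd1* a further cKO peak began within 1 kb of the edge, and the promoter peak and that peak were counted apart.

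**Figure D5:**
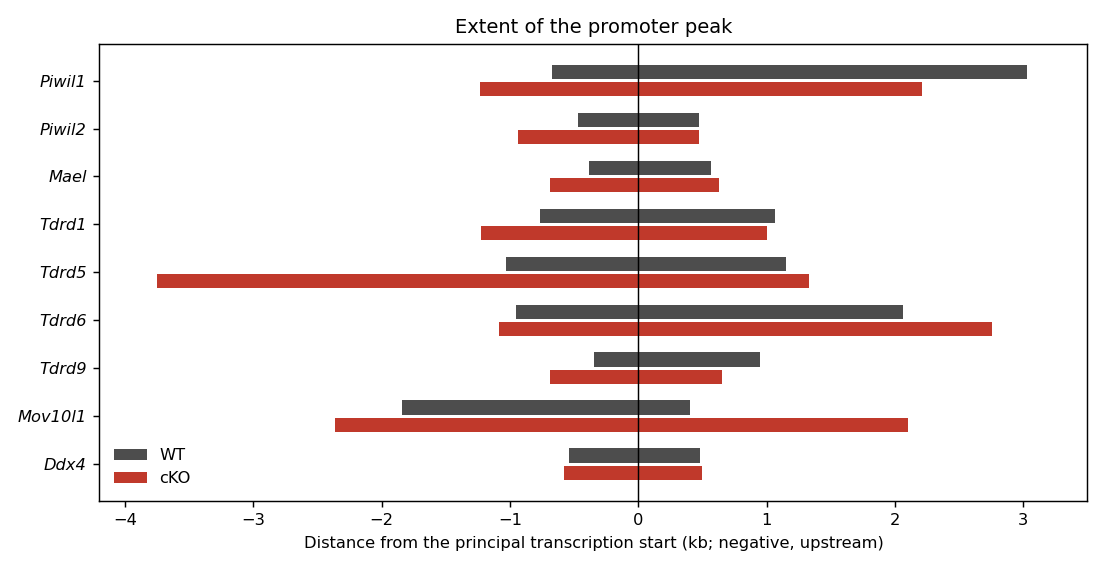
Extent of the promoter peak in kb on either side of the principal start (0) in WT (grey) and cKO (red). The red bars reach farther upstream at every gene, most at *Tdrd5* (1030 to 3753 bp), and farther downstream at 5.

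Gained peaks at the members were small. Their fold enrichment ranged from 2.78 to 4.25, with a median of 3.19 compared with 3.44 over all gained peaks, and their median width was 384 bp compared with 507 bp. They were centred in introns (13), coding exons (2) or at an internal start (1). Of the 16, 6 stood on 1 row, 4 on 2 and 6 on 3 or more, and 6 were found in all 4 cKO libraries (37.5%), against 55.9% of all gained peaks. Gained peaks were nonetheless spread over 8 of the 10 genes. A gained peak was present at 26.1% of protein-coding genes of the members' length range and at 24.9% of those that also had a promoter peak in both lists. Without the short *Tdrd6* the corresponding range gave 27.3%. The members were longer than the genes of the full range, with a median of 50660 bp against 32325 bp. Length was not matched more closely, and its part in these shares was not tested. No test was made, since the genes were named with these data known. At equal list lengths 3 members kept a gained peak. Among genes of that length range with both promoter peaks, the share with one also fell, from 24.9% to 7.35%. The spread over 8 genes thus includes weaker peaks that this cut removed. The share of the body in peaks was larger in cKO at 9 of 9, as at 92.3% of genes of that length with a WT peak.

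The members were then compared by the stage at which they are known to act. The 2 genes of pachytene onset, *Piwil1* and *Tdrd6*, had the widest promoter peaks of the WT list among the members, 3701 and 3017 bp, above 2249 bp at *Mov10l1*. Those widths lay at the 98.2nd and 97.0th percentile of all promoter peaks. Wide WT promoter peaks were also found among the 7 genes of both stages. *Mov10l1*, *Tdrd5* and *Tdrd1* lay at percentiles of 92.7, 91.9 and 86.3, and the rest of the 7 between 41.1 and 65.5. By the WT rows over the summit, *Tdrd6* (2550 to 2929 bp) stayed above every other member. *Piwil1* (1234 to 2530 bp) did not, and its rows overlapped in length with those of *Mov10l1* (1576 to 2249 bp). The collapsed WT peaks of *Piwil1* and *Tdrd6* also reached farthest into the gene, 3029 and 2066 bp. At the 7 genes of both stages the reach was 406 to 1153 bp. The far end of the *Piwil1* reach came from rows of 1841 and 290 bp off the summit. With 12.2% and 13.8%, the bodies of *Piwil1* and *Tdrd6* were the most covered in WT, ahead of *Tdrd1* with 7.41% and the others with at most 2.39%. The share of *Tdrd6* is set on a short gene, and in bases *Tdrd1* (3246 bp) was ahead of *Tdrd6* (2067 bp) and behind *Piwil1* (6460 bp). Their promoter fold enrichments, 10.9 and 8.07 in WT, lay within the range of the 7, 6.94 to 21.0. In cKO the widest promoter peaks belonged to *Tdrd5* and *Mov10l1*, genes of both stages. *Piwil4*, the fetal gene, had no peak. With 2, 7 and 1 genes the classes were described and not tested.

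The other genes of the pathway were described in the same way. Of 20 further factors, 17 had a promoter peak in WT and 19 in cKO, where 49.7% and 56.7% of all genes had one. All 17 with both had a higher fold enrichment in cKO (97.9% of all genes), and 16 were wider (95.3%), with *Tdrkh* (0.983 times) the exception. All cKO rows were longer than all WT rows at 14 of the 15 with 3 rows over both summits (91.8% of all genes). The median log2 ratio of fold enrichment was 0.78, above the 0.65 of all genes whereas the 0.57 of the members lay below it, and the median for width was 0.42, against 0.53 over all genes. The strongest WT promoter peaks were those of *Tdrkh* (17.8 in WT, 27.3 in cKO), a mitochondrial Tudor protein, of *Mybl1* (15.4 and 24.7), which encodes A-MYB, and of *Tdrd7* (14.4 and 24.9).

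The genes of this wider list without a WT promoter peak were *Spocd1* and *Dnmt3l*, which act with MIWI2 or in DNA methylation in the fetal testis, and *Morc1*, a fetal germ cell factor of transposon silencing. *Spocd1* had a cKO promoter peak at chr4:129928540-129929514 (975 bp, 5.73, 3 rows) and *Dnmt3l* one at chr10:78049230-78049868 (639 bp, 3.27, 3 rows). *Morc1* had no promoter peak in either list, but 1 peak elsewhere at the gene in each. Stage classes were set for the members alone, and whether promoter peaks are missing more often at fetal factors was not tested. The largest width ratios were at *Pld6* (4.22, 1840 to 7770 bp), which encodes the nuclease that cuts piRNA precursors, *Dnmt3c* (3.33, 232 to 772 bp), which methylates young transposons in the fetal testis, and *Fkbp6* (2.84, 460 to 1305 bp). At *Pld6* lay 2 WT peaks and 1 cKO peak, and the ratio sets the cKO peak against 1 of these WT peaks. *Dnmt3c* had a weak WT peak, with a fold enrichment of 3.0 on 2 rows.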

How the data were processed

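Measured were open chromatin fragments (Omni-ATAC) in 4 *Arid1a* WT and 4 *Arid1a* cKO libraries, grouped by genotype label. Per the labels and the study's methods, the authors trimmed reads with Trim Galore, aligned them to mm10 with Bowtie2, removed PCR duplicates with Picard and mitochondrial reads, called peaks with MACS2 against a constant background, and, after removal of blacklisted regions, intersected those of a genotype. The deposited lists hold a fold enrichment (a linear ratio), −log10 p and −log10 q values, a score derived from them, and positions and summit offsets of another unit. Fold and −log10 q are the authors' values for 1 reference library per list, and which library that is was not stated. The summit offset counts from the original peak start, so summit positions are approximate, and 5.10% of WT and 3.40% of cKO summits fell past the collapsed peak.

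Rows were collapsed by name (pandas 2.3.3, Python 3.11.15). The background was recovered from the grid of fold values, and for 99.99% of WT and 99.8% of cKO peaks it gave a Poisson p whose −log10 differed by under 1 percent from the value deposited. Genes followed GENCODE vM21 on GRCm38. A peak was at a gene when 1 bp or more lay in the body or the 1000 bp upstream, and the promoter peak was the one with the highest fold. Ratio intervals (95%) are exact binomial intervals on the summit pileups. The calculations were tested on simulated data. With 1 list per genotype no test was made, and nothing shows the depth of the 3 libraries that are not the reference. The 10 genes, the gene, marker and motif lists and the stage classes were chosen with earlier results of these data known. All members were named, other pathway genes were named where a promoter peak was missing or for the 3 strongest and the 3 largest width ratios, and 12 alternative settings were tried.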

Additional observations from a re-analysis of the deposited data

How the results depend on the processing

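Of 100 combinations of a result and an alternative setting, 88 moved a count by at most 1.5 times or a median by less than the counting error or the spread of the rows. Ranking genes with both peaks among themselves gave a median cKO percentile of 63.4 for the members, against 68.0 within the list. Member medians of the log2 fold ratio stayed at 0.57 and of the log2 width ratio between 0.35 and 0.47. Most settings kept the same member promoter peaks and none altered their fold values, so the fold median had little room to move. Such combinations are among the 88. Rows were longer in cKO at every member that could be compared, 6 with the peak centre in the window and 9 otherwise. Counts of weak peaks moved. At a −log10 q of at least 5, cKO peaks numbered 21 and gained peaks 7. At a −log10 q of at least 10, there were 9 WT peaks, 11 cKO peaks, 1 gained and 0 lost. With peaks on 3 or more rows, 8 were gained and 0 lost. With the cKO list shortened to the length of the WT list by −log10 q, cKO peaks numbered 17, with 3 gained and 5 lost. With the peak centre in the window, 5 members were wider, of 6 that still had both peaks. The number of members with a gained peak, examined after the data were seen, was 8, and became 4, 1, 5 and 3 under the −log10 q of 5, of 10, the 3 rows and the equal lengths, against 15.0%, 8.80%, 19.4% and 7.35% of comparable genes. Leaving out a replicate was not run, because the lists hold no values per library. No paired analysis was possible because each genotype is 1 list and no result comes from a test. A pileup under 13 fragments in WT or 14 in cKO could not be seen.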
